A study of Mus musculus with 8 samples.

Results

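Nfat5 and 4 genes of osmolyte handling, Slc5a3, Slc6a6, Slc6a12 and Akr1b3, were followed in cultured mouse keratinocytes (KCs), the epithelial cells of the epidermis. The 5 genes were taken by symbol from the 41457 genes listed in each of the deposited gene tables, and 4 of the 5 had enough reads to be tested. All 8 samples held untreated KCs of wildtype mice (C57BL/6 in the labels, C57BL/6J in the study's text), prepared from the tail of adult animals and kept in a serum-free medium with low calcium (0.06 mM). In 4 samples the KCs had been cultured for 1 week and in 4 for 3 weeks, the cells being split when nearly confluent, and the deposited design describes 4 independent experiments. No Nfat5-deficient KCs and no KCs under raised salt belong to these samples, so that time in culture is the only comparison, and the time since the last split is not given in the labels. Poly(A) RNA was sequenced, and the abundance of a transcript is given below as RPKM, the exon reads scaled to exon length and to the depth of the sample. In RNA of a whole culture, fewer cells that transcribe a gene and less RNA per cell cannot be told apart.

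NFAT5 (also called TonEBP) is the member of the NFAT and Rel family that is activated by hypertonic stress and, unlike NFATc1 to NFATc4, does not depend on calcineurin. In the renal medulla and in other tissues it raises the transcription of genes that fill cells with compatible osmolytes, which replace salt ions without disturbing proteins. Slc5a3 (SMIT1) imports myo-inositol, Slc6a6 (TauT) imports taurine, Slc6a12 (BGT1) imports betaine and GABA, and Akr1b3 is the mouse aldose reductase, which makes sorbitol from glucose. NFAT5 binds the tonicity-responsive element, whose core is TGGAAA, and it is regulated to a large part through its nuclear entry and its activity, which RNA abundance does not measure.

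On GRCm38, the build of the deposited tables, Nfat5 (ENSMUSG00000003847) lies on the plus strand at chr8:107293470-107379517 and Slc5a3 (ENSMUSG00000089774) on the plus strand at chr16:92058322-92087473. Slc6a6 (ENSMUSG00000030096, plus strand, chr6:91684053-91759066), Slc6a12 (ENSMUSG00000030109, plus strand, chr6:121343076-121365775) and Akr1b3 (ENSMUSG00000001642, minus strand, chr6:34302434-34317478) lie on chromosome 6. RefSeq promoter windows on GRCm38.p6, of 300 bases from 250 before to 50 after a transcription start, were found for 3 of the 5 genes, with 5 windows for Slc6a12 and 1 each for Nfat5 and Slc5a3. The letters TGGAAA, searched on both strands, occurred in 21.4% of all 32851 windows, and the full tonicity-responsive element, which contains them, in 4.96%. Among the windows of the 3 genes, the first of Slc6a12 held 1 match to both, on the plus strand and starting 75 bases before the transcription start, and the other 4 windows of Slc6a12 and those of Nfat5 and Slc5a3 held none. A match is a description of the letters and not a binding site. The 250 bases before this start of Slc6a12 (chr6:121342324-121342573, plus strand) are printed to show the match, in capitals. Those of Nfat5 (chr8:107293220-107293469, plus strand) are shown because this is the gene that changed most, and those of Slc5a3 (chr16:92058072-92058269, plus strand, up to the base before the deposited start of Mrps6) because the RefSeq windows of Slc5a3 and of Mrps6, a mitochondrial ribosomal protein gene, share 286 of 300 bases.
Slc6a12: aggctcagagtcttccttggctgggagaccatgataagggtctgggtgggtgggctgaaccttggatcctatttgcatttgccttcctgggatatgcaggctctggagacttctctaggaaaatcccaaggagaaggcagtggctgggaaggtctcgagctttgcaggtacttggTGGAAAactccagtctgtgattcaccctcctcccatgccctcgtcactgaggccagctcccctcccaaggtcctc
Nfat5: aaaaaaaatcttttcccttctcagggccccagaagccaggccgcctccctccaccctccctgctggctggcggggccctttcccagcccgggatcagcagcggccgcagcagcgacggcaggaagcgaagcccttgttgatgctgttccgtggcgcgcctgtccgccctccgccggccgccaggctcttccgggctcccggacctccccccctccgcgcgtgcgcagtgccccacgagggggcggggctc
Slc5a3: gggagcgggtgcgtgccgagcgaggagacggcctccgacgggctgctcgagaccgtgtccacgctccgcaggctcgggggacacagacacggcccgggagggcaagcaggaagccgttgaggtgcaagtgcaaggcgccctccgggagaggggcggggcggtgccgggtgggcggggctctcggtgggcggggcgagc
The windows of Nfat5 and Slc5a3 were rich in G and C (72.0% and 73.3%), those of Slc6a12 less so (55.7% to 57.7%), beside a median of 52.7% over all windows.

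The exon reads of a sample numbered between 13896807 and 20026084. Summed markers of basal KCs lay between 12181 and 14439 RPKM at 1 week and between 7106 and 8278 RPKM at 3 weeks, with Krt5 and Krt14 among the 6 markers, so that the labelled cell type was present in all samples. Markers of suprabasal KCs summed to 9.03 to 101 RPKM and 4.56 to 14.6 RPKM. The summed markers of fibroblasts did not exceed 4.65 RPKM in any sample, those of melanocytes 20.9 RPKM, those of immune cells 3.26 RPKM, with Cd207 at 0 reads throughout, and those of endothelial cells 0.637 RPKM. The sample labelled 3 weeks replicate 3 stood apart. It gave 10.8% of its exon reads to genes with under 1000 bases of exon, against 3.81% to 4.93% in the other 7 samples. To genes with 10000 bases or more it gave 4.68%, against 6.11% to 10.5%. Among the others, the share for these long genes was 6.11% to 7.72% at 1 week. It was 9.77%, 7.36% and 10.5% in 3 weeks replicates 1, 2 and 4. Nfat5 and Slc5a3 are such long genes (18378 and 10913 bases of exon). The log2 fold changes of Nfat5, Slc5a3, Slc6a6 and Akr1b3 are therefore also given without 3 weeks replicate 3. Of the 12590 genes with enough reads, 32.8% differed between the culture times (edgeR's quasi-likelihood test, adjusted p-value below 0.05), 15.7% being higher and 17.0% lower at 3 weeks. Thus 48.0% of the genes called were higher after TMM normalisation, and 29.8% on log2(RPKM + 0.1), which carries no such correction. Among Nfat5 and the 4 osmolyte genes, 4 were tested and 2 differed, Nfat5 being higher and Slc5a3 lower at 3 weeks. The median log2 fold change of the 4 tested was -0.05, against 0.03 over all genes tested.

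Nfat5 rose between 1 and 3 weeks in culture. At 1 week it gave 0.949, 1.20, 1.73 and 1.56 RPKM in replicates 1 to 4, from 332 to 507 exon reads. At 3 weeks it gave 3.79, 2.90, 1.70 and 4.93 RPKM, from 512 to 1332 exon reads. Thus 3 of the 4 samples at 3 weeks lay above all samples at 1 week, and replicate 3, the sample that stood apart, lay just below the highest sample at 1 week. The means were 1.36 ± 0.352 RPKM and 3.33 ± 1.37 RPKM (SD, n = 4). After TMM normalisation, which takes account of library composition, the 4 values at 1 week ran from 17.5 to 30.8 reads scaled to library size (CPM) and those at 3 weeks from 37.9 to 95.0 CPM, and here the groups did not overlap. Over all genes tested, the share without overlap was counted on the RPKM scale only (37.0%), where Nfat5 overlapped. The rise was 2.70-fold (log2 fold change 1.43, SE 0.29) with an adjusted p-value of 0.00612 in edgeR's quasi-likelihood test, a log2 fold change larger than that of 94.9% of the genes tested. The difference in mean RPKM had p = 0.0571 in a two-sided exact permutation test, which cannot go below 0.0286 with 4 against 4 samples. Without 3 weeks replicate 3 the log2 fold change was 1.61 (adjusted p = 0.00251 in edgeR's quasi-likelihood test), and the difference in mean RPKM grew from 1.97 to 2.51 with an exact permutation p of 0.0286.

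Nearly all reads of Nfat5 were unique. Between 99.4% and 100% of its exon reads were unique, no other listed gene overlapped it, and 0.0976% of the 59-base words of its longest protein-coding transcript, 59 bases being the length of the reads, occurred in transcripts of other genes. Intron reads made up between 2.13% and 5.80% of the reads on Nfat5 in 7 samples and 13.9% (83 of 595) in 3 weeks replicate 3, the sample with the lowest RPKM at this time. The highest RPKM values of Nfat5 came from 3 weeks replicates 1 and 4, which also gave the largest shares of reads to long genes (9.77% and 10.5%). What part the composition of these samples or of 3 weeks replicate 3 has in their Nfat5 values was not tested.

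**Figure D1:**
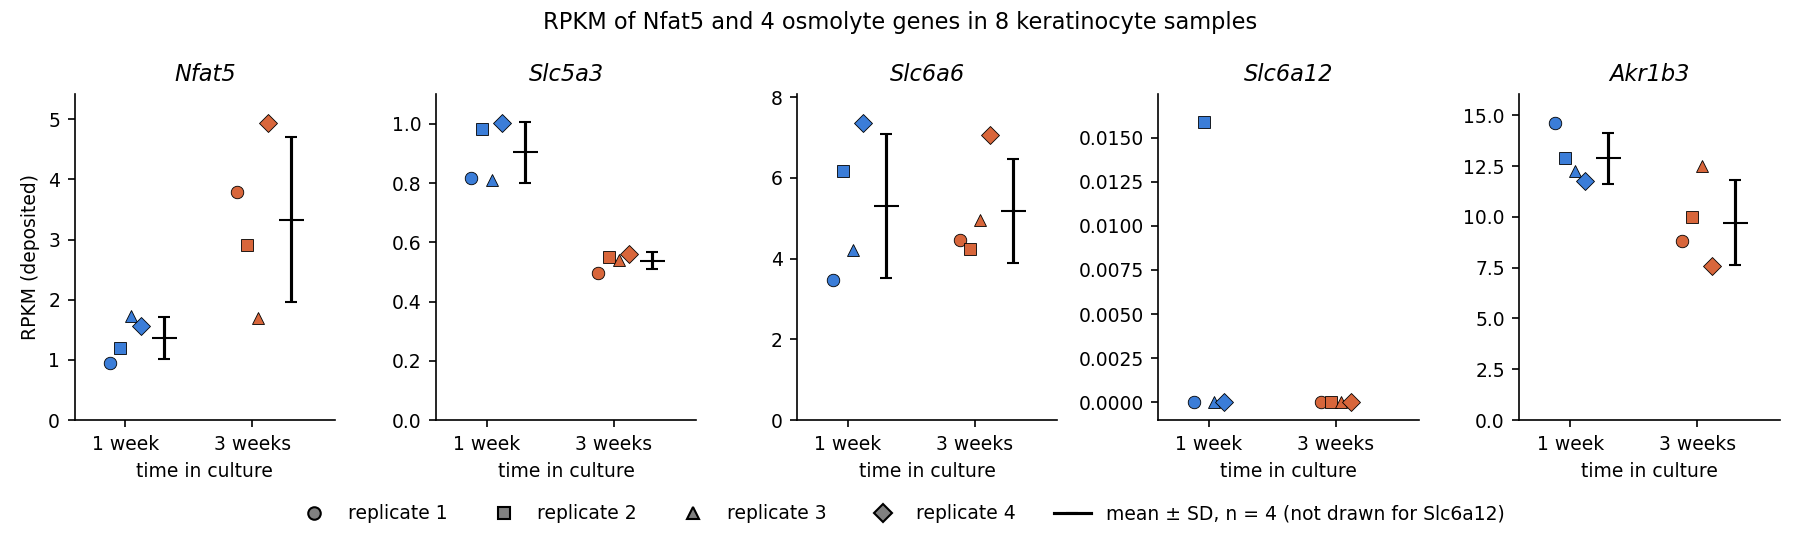
Deposited RPKM of Nfat5, Slc5a3, Slc6a6, Slc6a12 and Akr1b3 (vertical axes, scaled to each gene) in KCs cultured for 1 week (blue) or 3 weeks (orange). Each point is a sample, its shape gives the replicate number, and bars show the mean ± SD of 4 samples. Nfat5 reaches 2.90 to 4.93 RPKM in 3 of the 4 samples at 3 weeks, all samples of Slc5a3 at 3 weeks lie below those at 1 week, Slc6a6 and Akr1b3 overlap, and a single sample holds a read of Slc6a12.

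Slc5a3, the myo-inositol importer, fell. At 1 week it gave 0.818, 0.983, 0.811 and 1.00 RPKM, and at 3 weeks 0.497, 0.552, 0.541 and 0.561 RPKM. All samples at 3 weeks lay below all samples at 1 week and close to each other, with means of 0.904 ± 0.103 and 0.538 ± 0.0287 RPKM (SD, n = 4). Of the 4 tested genes, Slc5a3 alone had groups that did not overlap on the RPKM scale. Over all genes tested, this share was 37.0%, and 26.2% were lower at 3 weeks without overlap. The fall was 1.50-fold (log2 fold change -0.58, SE 0.16) with an adjusted p-value of 0.0197 in edgeR's quasi-likelihood test, and the difference in mean RPKM had the smallest p that the two-sided exact permutation test allows (0.0286). These values rest on 90 to 221 exon reads per sample, and the call was lost when 1 week replicate 2, 1 week replicate 4, 3 weeks replicate 1 or 3 weeks replicate 2 was left out (adjusted p = 0.0533, 0.0595, 0.0610 and 0.0587 in edgeR's quasi-likelihood test), the log2 fold change staying between -0.66 and -0.53. Without 3 weeks replicate 3 it was -0.66 (adjusted p = 0.0151 in the same test). The call was also lost with the replicate number as a block (adjusted p = 0.0821 in the same test) and with the preparation number, described below, as a block over the 3 preparations found at both times (-0.63, adjusted p = 0.0899 in the same test).

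Slc5a3 shares its locus with Mrps6, which starts just before it on the same strand (chr16:92058270-92112227) and spans it, and with a further gene model, AC144408.3, that had 0 exon reads. At most 2 exon reads of Slc5a3 were unique in any sample (0% to 0.990%), although 0.930% of the 59-base words of its longest protein-coding transcript occur in transcripts of other genes, namely Mrps6 and Gm49711. The authors ran the alignment and counting software with default settings, and what these did with reads that fall in several gene models was not tested. A test on unique reads could not be made. The RPKM of Mrps6 itself averaged 17.8 ± 2.36 and 14.4 ± 3.37 (SD, n = 4) at the earlier and later time, and its log2 fold change was -0.12 (SE 0.22, adjusted p = 0.710 in edgeR's quasi-likelihood test). Only 4.35% to 8.71% of the exon reads of Mrps6 were unique. Whether the fall of Slc5a3 and the value of Mrps6 differ was not tested.

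Slc6a6, the taurine importer, varied more between samples of a culture time than between the times. It gave 3.46, 6.18, 4.22 and 7.35 RPKM at 1 week and 4.46, 4.24, 4.95 and 7.06 RPKM at 3 weeks. Both groups spanned nearly the same range, and replicate 4 was the highest of each. The means were 5.30 ± 1.78 and 5.18 ± 1.29 RPKM (SD, n = 4). The log2 fold change was 0.13 (SE 0.26, adjusted p = 0.733 in edgeR's quasi-likelihood test), and the two-sided exact permutation test on RPKM gave p = 0.914. The sign of so small a difference depended on the scale, being positive with TMM normalisation and slightly negative on RPKM. Without 3 weeks replicate 3 the log2 fold change was 0.08 (adjusted p = 0.843 in edgeR's quasi-likelihood test). Between 99.5% and 100% of the exon reads of Slc6a6 were unique, and none of the 59-base words of its longest protein-coding transcript occurred elsewhere. The 3 gene models that overlap it held 0 reads.

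Slc6a12, the betaine importer, was hardly detected. A single exon read was counted in 1 week replicate 2 (0.0159 RPKM) and none in the other 7 samples, and 3 weeks replicate 4 had 1 intron read. At these depths a count of 0 allows up to 3 reads, or between 0.0516 and 0.0685 RPKM for this gene in those 7 samples, and this limit covers counting error only. Slc6a12 did not have enough reads for the fit across genes, and no fold change is given.

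Akr1b3, the aldose reductase, had the highest values of the 5 genes. It gave 14.6, 12.9, 12.2 and 11.8 RPKM at 1 week and 8.80, 10.01, 12.5 and 7.57 RPKM at 3 weeks. Again 3 of the 4 samples at 3 weeks lay outside the range of 1 week, here below it, and 3 weeks replicate 3 lay inside. The means were 12.9 ± 1.25 and 9.72 ± 2.11 RPKM (SD, n = 4), the log2 fold change was -0.23 (SE 0.20, adjusted p = 0.412 in edgeR's quasi-likelihood test), and the exact permutation p on RPKM was 0.0857. Without 3 weeks replicate 3, Akr1b3 was lower at 3 weeks by a log2 fold change of -0.46 (SE 0.14, adjusted p = 0.0301 in edgeR's quasi-likelihood test), and all remaining samples at 3 weeks lay below those at 1 week (exact permutation p = 0.0286). The share of all genes without overlap among these samples was not counted. The edgeR call for Akr1b3 therefore turned on 3 weeks replicate 3, and its place depended on the scale. After TMM normalisation it lay above all samples of 1 week (127 CPM, against 96.8 to 122 CPM). In TPM, which has the same sum in each sample, all samples at 3 weeks lay below those at 1 week (22.9 to 27.4 against 34.7 to 39.5 TPM).

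Most exon reads of Akr1b3 were not counted as unique. The unique share was 4.07% to 6.67%, and 58.3% of the 59-base words of its longest protein-coding transcript (1387 bases) also occurred in processed pseudogenes, among them Gm6644 (53.9%), Gm6736 (45.8%) and Gm12138 (37.3%). A gene model on the opposite strand, Gm14546, spans Akr1b3 and held 0 exon reads. What part either has in the low unique share was not tested. With unique reads alone the log2 fold change of Akr1b3 was -0.04 (adjusted p = 0.913 in edgeR's quasi-likelihood test), on 52 to 105 reads per sample. Its RPKM is also set by an exon length of 8384 bases in the deposited tables, several times the length of that transcript, which lowers the printed level.

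**Figure D2:**
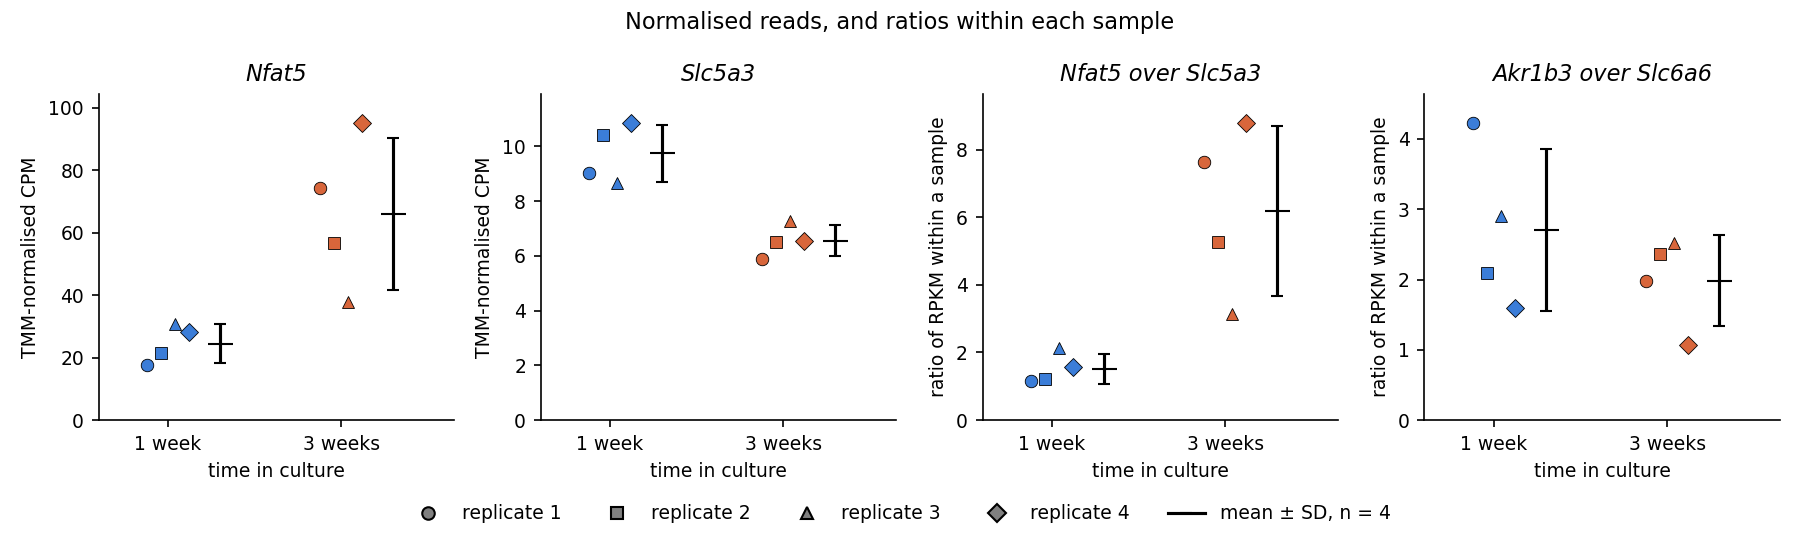
TMM-normalised CPM of Nfat5 and Slc5a3 (left panels) and ratios of RPKM between genes of the same sample (right panels) at 1 week (blue) and 3 weeks (orange). Points are samples, shapes give replicate numbers and bars show the mean ± SD of 4 samples. On the CPM scale neither gene overlaps between the times, and the ratio of Nfat5 to Slc5a3 runs from 1.16 to 2.13 at 1 week and from 3.13 to 8.79 at 3 weeks, whereas the ratio of Akr1b3 to Slc6a6 overlaps. The share of all tested genes without overlap was counted on RPKM only (37.0%), and not for ratios.

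Ordered by RPKM, Akr1b3 was followed by Slc6a6, Nfat5, Slc5a3 and Slc6a12 in each of the 8 samples. Ratios within a sample do not depend on its depth. Slc5a3 and Nfat5, neighbours in this order, drew apart. The ratio of Nfat5 to Slc5a3 went from 1.52 ± 0.445 at 1 week to 6.20 ± 2.52 at 3 weeks (SD, n = 4) without overlap. This separation restates the opposite changes of both genes and is no further result. How often ratios of other genes lack overlap was not counted. Nfat5 came closer to Slc6a6, the ratio of Slc6a6 to Nfat5 being 3.98 (range 2.44 to 5.14) at 1 week and 1.75 (range 1.18 to 2.92) at 3 weeks, so that these ranges overlap. The ratio of Akr1b3 to Slc6a6 was 2.70 (range 1.60 to 4.23) and 1.98 (range 1.07 to 2.52). Akr1b3 stood near Slc6a6 in replicate 4 of both times, with ratios of 1.60 and 1.07, and the separation between these neighbours thus varied widely between samples.

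The names of the deposited tables carry a further number, used here as a preparation number although the labels do not say what it marks. The study describes the same batches of KCs at both times, and 3 of these numbers (46, 49 and 90) occur at both times. Within each of them Nfat5 was higher at 3 weeks, by factors of 3.99, 1.68 and 3.16 on the RPKM scale. Slc5a3 was lower in each, with ratios of 3 weeks to 1 week of 0.607, 0.681 and 0.560. Akr1b3 was also lower in each (0.602, 0.818 and 0.644), and Slc6a6 lay near its value of 1 week (1.29, 1.00 and 0.960). The sample labelled 3 weeks replicate 3 belongs to none of the 3 numbers.

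**Figure D3:**
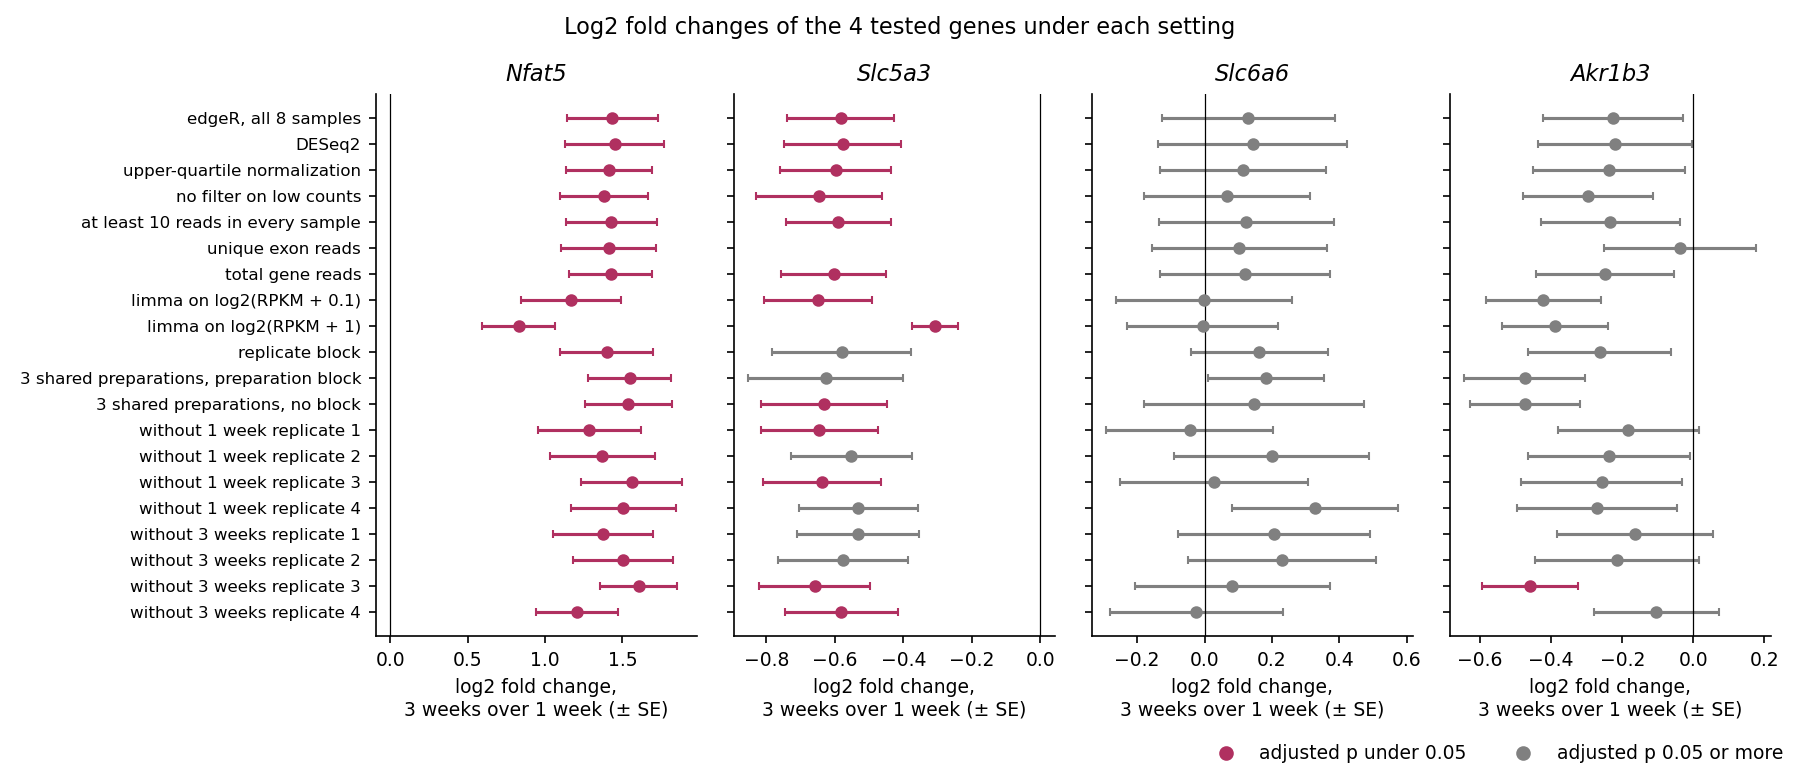
Log2 fold changes of the 4 tested genes, 3 weeks over 1 week, with SE (horizontal axes, scaled to each gene), for all 8 samples in edgeR (top) and under each other tool, filter, normalisation, block or left-out sample. Red points have an adjusted p-value under 0.05. Nfat5 lies between 0.83 and 1.61 and is red throughout, Slc5a3 is below 0 throughout but grey in 6 settings, Slc6a6 lies around 0, and Akr1b3 is red only without 3 weeks replicate 3. Slc5a3 has no point for unique reads.

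The genes whose normalised profile over the 8 samples was nearest to that of each tested gene were named by the root mean square difference of log2 CPM, each gene being centred on its own mean. For Nfat5 these were Hyal1, a hyaluronidase (0.114), Vwa8 (0.177) and Cemip2, a cell surface hyaluronan-degrading protein (0.181), against a median of 0.864 over the genes compared. Near to Slc5a3 were Tmem154 (0.0613) and H3f3b, a gene for histone H3.3 (0.0873). Cirbp, a cold-inducible RNA-binding protein gene (0.159), Ampd3, an AMP deaminase (0.226), and Zfp992 (0.229) were nearest to Slc6a6. Those nearest to Akr1b3 were Ndufab1, of mitochondrial complex I (0.0415), Rpl23a, a ribosomal protein gene (0.0545), and Snrpd2, of the spliceosome (0.0578). The points share the library and its depth, and likeness over 8 samples of the same cultures says nothing on shared control.

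The other NFAT genes and 5 further lists of genes of tonicity and osmolyte handling, 78 genes in all, were examined in the same fit. Of these, 62 were tested, 12 rose, 11 fell and 39 did not pass, with a median log2 fold change of 0.16 beside 0.03 over all genes tested. The share called, 23 of 62, stands beside 32.8% over all genes, and the direction was mixed in most lists.

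Among the calcineurin-dependent NFAT genes, 1 of the 3 tested was called, beside 32.8% over all genes. Nfatc2 was higher at 3 weeks (log2 fold change 2.33, SE 0.45, adjusted p = 0.00461 in edgeR's quasi-likelihood test) but at a very low level. Its mean went from 0.0178 ± 0.00937 to 0.0813 ± 0.0176 RPKM (SD, n = 4). It had 1 to 5 reads per sample at 1 week and 11 to 19 at 3 weeks. Only the samples of 3 weeks took it through the filter on low counts, so that its test is no separate support for a rise. The call was lost in 1 of the 10 other settings. Nfatc1 had 2.40 and 1.89 RPKM and Nfatc3 5.67 and 4.82 RPKM at 1 and 3 weeks, without passing the test (adjusted p = 0.613 and 0.667 in the same test). Nfatc4, with 4 to 17 reads, was not tested. Nfat5, which lay below both Nfatc1 and Nfatc3 in mean RPKM at 1 week, was above Nfatc1 and below Nfatc3 in mean RPKM at 3 weeks.

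Of 14 genes for proteins that act on NFAT5, 3 rose and 2 fell, beside 15.7% and 17.0% over all genes. Cdk5, a kinase (log2 fold change 0.89), Pik3ca, the catalytic subunit of PI3-kinase (0.63), and Spag9, a scaffold of the p38 and JNK kinases (0.74), were higher at 3 weeks, with adjusted p-values of 0.00386, 0.00819 and 0.0435 in edgeR's quasi-likelihood test. The call for Spag9 was kept without 3 weeks replicate 3 and lost without any of the other 7 samples (highest adjusted p = 0.141 in edgeR's quasi-likelihood test), and in 5 of the 11 other settings (up to 0.172). That for Pik3ca was kept with each sample left out but lost in 2 of the 11 other settings. Xpo1, the exportin through which proteins leave the nucleus, fell from 23.3 ± 1.52 to 10.6 ± 0.415 RPKM (log2 fold change -0.98, adjusted p = 0.000366 in edgeR's quasi-likelihood test), and Nup62, a nuclear pore protein, fell by 1.01 on the log2 scale (adjusted p = 0.00512 in the same test), with 3.29% unique reads. Mapk14, the p38 kinase, was at 19.8 and 18.2 RPKM (adjusted p = 0.817 in the same test).

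Of 15 other genes of the hypertonicity response, 10 were tested, 2 rose and 2 fell, beside 15.7% and 17.0% over all genes. Vegfc, a lymphatic growth factor gene, rose from 0.230 ± 0.0878 to 2.61 ± 1.41 RPKM (log2 fold change 3.69, adjusted p = 0.00208 in edgeR's quasi-likelihood test). Sgk1, a kinase that acts on ion channels, rose from 49.5 ± 9.90 to 145 ± 24.0 RPKM (log2 fold change 1.72, adjusted p = 0.000646 in the same test). Slc38a2, the neutral amino acid importer SNAT2, fell from 61.2 ± 10.5 to 26.5 ± 2.03 RPKM (log2 fold change -1.04, adjusted p = 0.00106 in the same test), and the water channel Aqp1, with 1 to 43 reads per sample, fell by 2.04 on the log2 scale (adjusted p = 0.0278 in edgeR's quasi-likelihood test). The call for Aqp1 was lost on leaving out 1 week replicate 2, 3 or 4 or 3 weeks replicate 1 or 2 (adjusted p up to 0.0803 in the same test). The samples of 3 weeks alone would not have taken Aqp1 through the filter on low counts. Those of 1 week alone would not have taken Vegfc (6 to 153 reads per sample) through it. Both tests are therefore no separate support for these changes. Hspa1b, an inducible heat shock protein, gave 21.7 ± 10.7 and 70.0 ± 86.3 RPKM (SD, n = 4) and did not pass (log2 fold change 1.83, SE 0.74, adjusted p = 0.0900 in edgeR's quasi-likelihood test). Its mean at 3 weeks rested on replicate 4 (198.5 RPKM), without which it was 27.1 RPKM (log2 fold change 0.54, adjusted p = 0.349 in the same test).

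For the synthesis and breakdown of osmolytes, 12 of 17 genes were tested, 3 rose and 2 fell, beside 15.7% and 17.0% over all genes. Of the listed genes for making myo-inositol, Isyna1 and Impa2 fell and Impa1 did not pass. Isyna1, the inositol-3-phosphate synthase, went from 28.4 ± 1.88 to 14.4 ± 1.26 RPKM (log2 fold change -0.82, adjusted p = 0.000821 in edgeR's quasi-likelihood test), and Impa2, an inositol monophosphatase, from 12.9 ± 1.36 to 5.61 ± 1.40 RPKM (-1.04, adjusted p = 0.00369 in the same test). Its relative Impa1 gave 13.5 and 12.2 RPKM and did not pass (adjusted p = 0.910). Gdpd5, which breaks down glycerophosphocholine, rose by 1.31, Csad, of taurine synthesis, by 0.85, and Sord, sorbitol dehydrogenase, by 0.62 on the log2 scale (adjusted p = 0.00375, 0.0284 and 0.0292 in edgeR's quasi-likelihood test). With 1 sample left out at a time, the adjusted p of Csad reached 0.0766 (call lost without 1 week replicate 3 or 4 or 3 weeks replicate 3 or 4) and that of Sord 0.0794 (call kept only without 3 weeks replicate 1 or 4). In the 11 other settings the call was lost in 5 for Csad (adjusted p up to 0.0806) and in 6 for Sord (up to 0.182), for each with either block. The aldose reductase relatives Akr1b8 (45.9 and 35.9 RPKM) and Akr1b10 (4.23 and 5.08 RPKM) did not pass (adjusted p = 0.587 and 0.125 in the same test).

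Among 10 further carriers of osmolytes, 5 were tested. Slc2a13, a proton-coupled myo-inositol carrier, rose from 0.0484 ± 0.0259 to 0.307 ± 0.129 RPKM (log2 fold change 2.81, adjusted p = 0.00301 in edgeR's quasi-likelihood test), the creatine importer Slc6a8 rose from 17.8 to 23.9 RPKM (0.59, adjusted p = 0.0120 in the same test), and the choline carrier Slc44a1 fell from 19.2 to 11.0 RPKM (-0.63, adjusted p = 0.00327 in the same test). The call for Slc6a8 was lost over the 3 shared preparations (adjusted p = 0.0848 with the preparation block and 0.0581 without it, in the same test). Slc2a13 had 2 to 70 reads per sample, the fewest at 1 week. The samples of 1 week alone would not have taken it through the filter on low counts. Its test is therefore no separate support for a rise. Slc2a13 went the other way from Slc5a3, but stayed below it in mean RPKM at 3 weeks. The difference between the changes of both genes was not tested.

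All 18 genes of cell volume, ion and water balance were tested, 1 rose and 4 fell, beside 15.7% and 17.0% over all genes. Aqp3, the water and glycerol channel of the epidermis, fell from 10.6 ± 6.87 to 1.34 ± 0.309 RPKM (log2 fold change -2.81, adjusted p = 0.00304 in edgeR's quasi-likelihood test). Oxsr1, a kinase that controls cation-chloride cotransporters (-0.72, 24.1% unique reads), Lrrc8e, a subunit of the volume-regulated anion channel (-0.71), and Atp1b3, a subunit of the sodium pump (-0.55), also fell (adjusted p = 0.00184, 0.00516 and 0.0454 in the same test). Atp1b1, another subunit of the pump, rose by 0.88 on the log2 scale (adjusted p = 0.00470 in the same test). The call for Atp1b3 was lost on leaving out 1 week replicate 3 or 4 or 3 weeks replicate 1, 2 or 4 (adjusted p up to 0.121) and with the replicate block (0.0522).

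**Figure D4:**
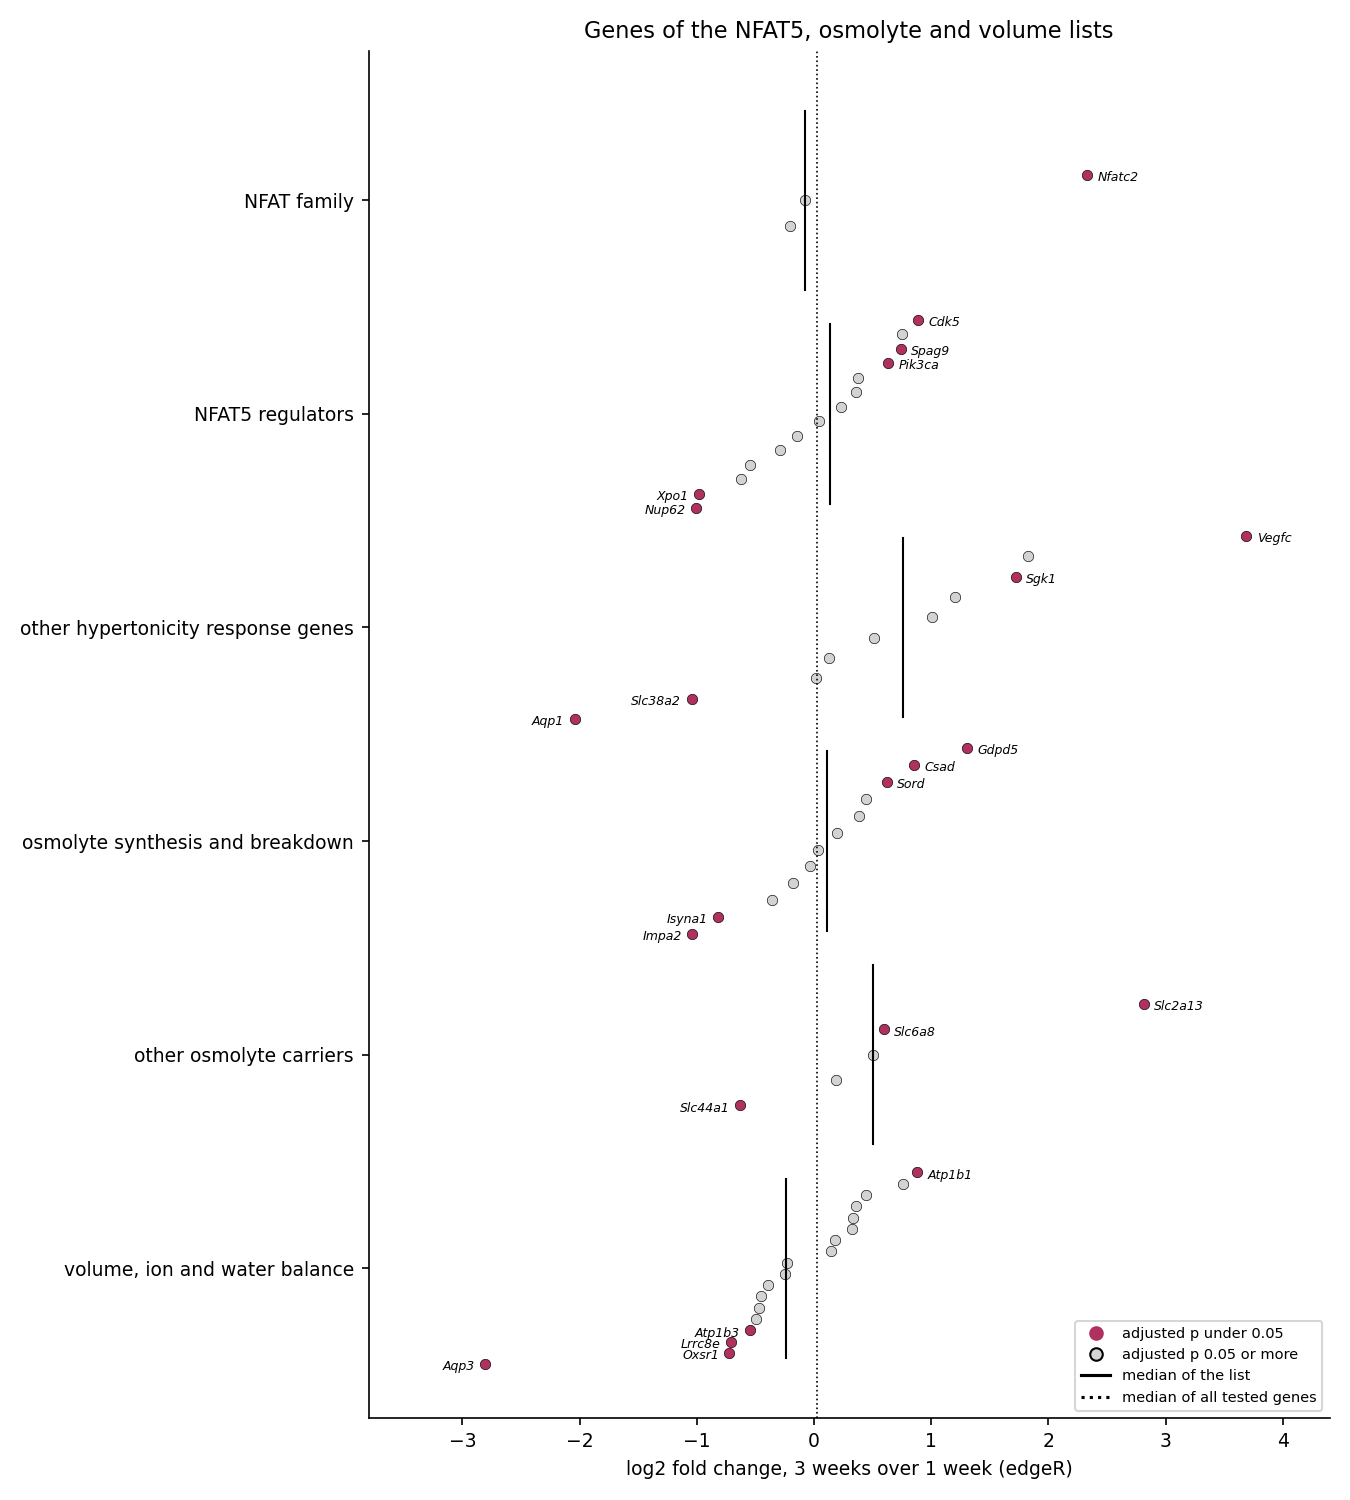
Log2 fold changes, 3 weeks over 1 week, of the 62 tested genes in the 6 lists (rows). Each point is a gene, red and named where the adjusted p-value is under 0.05, with genes of a list spread vertically by rank. Solid lines mark the median of a list, from -0.24 to 0.76, and the dotted line the median of all tested genes (0.03). Points called in both directions stand in 5 of the 6 lists.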

How the data were processed

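Samples of KCs after 1 week (n = 4) and after 3 weeks (n = 4) were compared, with groups and replicate numbers from the labels. Libraries came from 140 ng of total RNA by poly(A) selection. The authors aligned single reads to GRCm38 in the CLC Genomics Workbench, run with default RNA-seq settings. The deposited tables hold whole-number counts of reads per gene (total and unique exon reads, gene reads and intron reads), together with RPKM and TPM values, written with decimal commas. Strand use in counting and the annotation release are not given in the sources used here.

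The test used the total exon reads (edgeR 4.0.16, R 4.3.3: filterByExpr, TMM, glmQLFit, glmQLFTest, Benjamini-Hochberg adjustment over 12590 genes, threshold 0.05), without pairing, as the study used unpaired tests. SEs were derived from the F statistics. Mean RPKM was compared for 5 genes by two-sided exact permutation tests over 70 arrangements, unadjusted. Alternatives were DESeq2 1.42.0, upper-quartile normalisation, other filters, unique or gene reads, limma 3.58.1 on log2(RPKM + 0.1) or log2(RPKM + 1), TPM, blocks, and each sample left out. The median log2 fold change of all genes was 0.03 with TMM and -0.16 on log2(RPKM + 0.1). Replicates differed beyond counting noise (chi-square per degree of freedom at least 15.5).

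In simulated counts for this comparison (12590 genes, 200 of them changed), 45 of 100 genes changed 2-fold and 93 of 100 changed 4-fold were recovered, with 8 false calls. The simulated spread followed the trend over all genes, and far fewer genes were changed than the 32.8% called in the data. These counts therefore need not hold for the data. Nfat5, the 4 osmolyte genes, the further lists and the tests were chosen with earlier results of these data known. Named were the 5 genes, the called genes of each list (at most the 4 largest rises and the 4 largest falls), all NFAT genes and the 3 nearest profiles of each tested gene with at least 10 CPM. A gene of the lists and a near profile are not reported here. Mapk14, Hspa1b, Impa1, Akr1b8, Akr1b10 and Mrps6 were named after their values had been seen. Shared 59-base words were counted in GENCODE M21 transcripts, and promoter windows came from RefSeq (GRCm38.p6). Python 3.11.15 and matplotlib 3.10.9 were used.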

Additional observations from a re-analysis of the deposited data

Results flagged for a closer look

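In 83 groups of 4 samples, the highest or lowest RPKM was compared with the nearest other sample by Dixon's ratio of gap to range, which flags about 1 group in 20 by chance, and 3 samples passed the critical value of that test for 4 samples. Ampd3, the second gene by likeness to Slc6a6, had 20.65 RPKM in 3 weeks replicate 4 and 12.75 to 13.18 RPKM in the other 3 samples of that time. Xpo1 had 9.945 RPKM in 3 weeks replicate 3, against 10.74 to 10.83 RPKM. Slc6a12 had 0.01591 RPKM, a single read, in 1 week replicate 2, against 0 in the other 3 samples of that time. With a single value above 0 the ratio is always 1, so that this flag was fixed in advance. Nfat5, Slc5a3, Slc6a6 and Akr1b3 were not among the flagged genes.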

How the results depend on the processing

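Nfat5 was higher at 3 weeks with an adjusted p-value under 0.05 under each alternative tried, its log2 fold change lying between 1.21 and 1.61 with 1 sample left out and between 0.83 and 1.55 otherwise. Its difference in mean RPKM ranged from 1.44 to 2.51 with 1 sample left out and passed the exact permutation test only without 3 weeks replicate 3. Slc5a3 was lower throughout (-0.66 to -0.53 with 1 sample left out). With the replicate number as a block its log2 fold change was -0.58 (adjusted p = 0.0821 in edgeR's quasi-likelihood test), and with the preparation number as a block, over the 3 shared preparations, -0.63 (adjusted p = 0.0899 in the same test). Pairs of the same replicate number had correlations of deviations from -0.227 to 0.249. Equal replicate numbers do not mark equal preparation numbers, which are 47 and 49 for replicate 2 and 49 and 57 for replicate 3. Pairs of the same preparation number gave -0.227, 0.2 and 0.249, beside -0.285 to 0.416 over pairs of different numbers. The labels give no pairing although the study describes shared batches of KCs. The replicate block left 2867 calls over all genes against 4127, and the calls for Nfat5, Slc6a6 and Akr1b3 were the same under this block. The log2 fold change of Akr1b3 ranged from -0.46, called, without 3 weeks replicate 3 to -0.10 without 3 weeks replicate 4, and its difference in mean values from -4.09 to -2.44 RPKM. In TPM, which removes the larger RPKM sum of 3 weeks replicate 3, that difference was -11.0 TPM (exact permutation p = 0.0286). The sign of Slc6a6, never called, turned under limma on RPKM and without 1 week replicate 1 or 3 weeks replicate 4. Slc6a12 could be fitted only with no filter on low counts, and Slc5a3 not with unique reads. For the other 36 named genes, 621 of 679 values kept their side of the threshold, 55 lost the call and 3 gained one. Of the changes in direction, 0 involved a call in either fit. Where neither fit called a gene, its sign could turn. Ampd3, for example, had a log2 fold change of 0.14 with all 8 samples and -0.03 without 3 weeks replicate 4. Causes were not tested. Of Nfat5 and the 4 osmolyte genes, Slc6a12 (at most 1 exon read per sample) and Slc5a3 (90 to 221) rested on the fewest reads.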
